A study of Mus musculus with 9 samples.

Results

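The genes described here encode 9 enzymes that carry acetyl-CoA to squalene epoxide, the front part of cholesterol synthesis: Acat2, Hmgcs1, Mvk, Pmvk, Mvd, Idi1, Fdps, Fdft1 and Sqle. They were chosen by symbol, in pathway order and with earlier results of these data known. All 9 were found among the 22001 mouse gene identifiers of the count table. A filter on low counts kept 11469 genes for testing, and all 9 enzymes passed it.

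Acetyl-CoA units are joined to HMG-CoA, which is reduced to mevalonate, phosphorylated and decarboxylated to the isoprenoid unit isopentenyl diphosphate. Such units are built up to farnesyl diphosphate, which either enters sterol synthesis through squalene or is used for prenylated proteins, dolichol and ubiquinone. The genes of the pathway are well-known targets of SREBP2, a transcription factor held in the endoplasmic reticulum when membrane sterol is plentiful and released when it is scarce. Macrophages also take up much cholesterol in lipoproteins, and inflammatory stimuli are known to alter their sterol metabolism.

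The study profiled RNA of macrophages, phagocytic cells that were grown from the bone marrow of C57BL6 mice. By their labels, 3 libraries had received Pam3CSK4 at 100 µg/ml with 3SL at 100 µl/ml, 3 had received Pam3CSK4 alone at 100 µg/ml, and 3 were untreated with PBS, each for 6 h. Pam3CSK4 is a synthetic lipopeptide that activates Toll-like receptors. The library titles read Pamc4-3SL for the 3SL libraries and Pamc3 for those labelled Pam3CSK4 alone. Whether both groups received the same lipopeptide is therefore not settled, and a difference between them cannot be assigned to 3SL alone. 3SL is read from the series title as 3'-sialyllactose, a milk oligosaccharide, and its dose is given as a volume, so that the amount is not known. The codes are A2plus, B2plus and C2plus for 3SL, D1, D2 and D3 for Pam3CSK4 alone, and A2, B2 and C2 for untreated. What the letters stand for is not stated, so that Pam3CSK4 and whatever the letter D marks cannot be told apart. Separate cultures or animals within a group are not stated, so the p-values cover the spread among these libraries only, and that spread may be technical.

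The labels went against the inflammatory genes, so each group is called by its label throughout. Il1b, the gene of the cytokine interleukin-1β, had 7495, 8353 and 8561 CPM (read counts scaled to a common library size) in 3SL-labelled libraries, 7.36, 4.30 and 7.03 CPM in Pam3CSK4-labelled libraries, and 10260.2, 10559 and 9661 CPM in untreated-labelled libraries. Tnf ran the same way, at 1219 to 1332 CPM in 3SL-labelled, 17.6 to 18.9 CPM in Pam3CSK4-labelled and 1651 to 1731 CPM in untreated-labelled libraries. Low inflammatory transcripts therefore stood in the libraries labelled Pam3CSK4 and high ones in those labelled untreated. Every direction given below rests on the labels as they stand.

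Depth and cell markers differed between libraries. Total counts were 7472482 to 43980309 per library, and 3 counts, taken as the floor of detection, equal 0.0746 to 0.422 CPM, a limit that covers counting error only. All 8 macrophage markers were present in every group, and their summed level was 21755 to 22355 CPM in 3SL-labelled, 16196 to 16646 CPM in Pam3CSK4-labelled and 22393 to 22887 CPM in untreated-labelled libraries. Lyz2 made up most of that sum, and in Pam3CSK4-labelled against untreated-labelled libraries 2 of the 8, Cd68 and Mertk, were called higher and 6 lower. The 8 neutrophil and progenitor markers summed to 187 to 202 CPM, 186 to 242 CPM and 219 to 221 CPM in the same order of groups. Of the 7 tested, 4 were called higher in Pam3CSK4-labelled than in untreated-labelled libraries (Elane, Mpo, Prtn3 and Retnlg) and 3 lower (Ngp, Camp and Ltf), so the sum hides opposite changes. The 6 lymphocyte markers summed to 9.35 to 11.2 CPM, 10.9 to 13.2 CPM and 9.97 to 11.6 CPM. Most of that sum was Cd4, the only tested gene of the 6, with means of 9.35, 11.6 and 9.53 CPM. The T cell gene Cd3e had 3, 0 and 4 counts in the groups. The 6 dendritic cell markers summed to 6.18 to 6.95 CPM, 3.52 to 4.65 CPM and 8.27 to 9.99 CPM. Of the 4 tested, Batf3 was called higher and 3 lower (Xcr1, Siglech and Ccr7) in Pam3CSK4-labelled than in untreated-labelled libraries. Ccr7 had means of 3.15, 0.159 and 3.98 CPM in the 3 groups. The 5 stromal markers summed to 7.17 to 9.99 CPM, 1.72 to 2.64 CPM and 11.8 to 13.05 CPM. Most of the stromal sum was Pdgfrb, the only tested gene of the 5, with means of 6.90, 1.12 and 10.3 CPM. The 5 erythroid and mast cell markers summed to 1.96 to 3.795 CPM, 4.48 to 5.58 CPM and 2.86 to 4.05 CPM, highest in the Pam3CSK4-labelled libraries without overlap. Kit, the only tested gene of the 5, was called higher in Pam3CSK4-labelled than in untreated-labelled libraries. It was called lower in 3SL-labelled than in Pam3CSK4-labelled libraries. In these bulk samples fewer cells of a type and less RNA per cell cannot be told apart, and the part of the marker differences in the results below was not tested.

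All 9 enzymes were expressed above the floor in every library, and with TMM factors, which scale the libraries so that most genes are centred, their summed level was highest in the 3SL-labelled libraries. The sum was then 573, 539 and 543 CPM in 3SL-labelled libraries, 475, 461 and 457 CPM in Pam3CSK4-labelled libraries, and 318, 341 and 363 CPM in untreated-labelled libraries. With this scaling no library of a group reached the range of another group. With total counts alone, computed for the sum after seeing the data, it was 545.5, 509 and 512 CPM in 3SL-labelled, 542, 526 and 525 CPM in Pam3CSK4-labelled, and 295, 312 and 336 CPM in untreated-labelled libraries. The 3SL-labelled and Pam3CSK4-labelled libraries then overlapped, and both stayed above the untreated-labelled ones. With TMM factors the means were 552 ± 18.5 CPM, 464 ± 9.53 CPM and 341 ± 22.5 CPM in that order (SD, n = 3 each). Differences are given below as log2 fold changes ± SE from 1 edgeR quasi-likelihood model of all 9 libraries. A gene was called where its p, adjusted by Benjamini-Hochberg over all 11469 tested genes, was below 0.05.

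**Figure D1:**
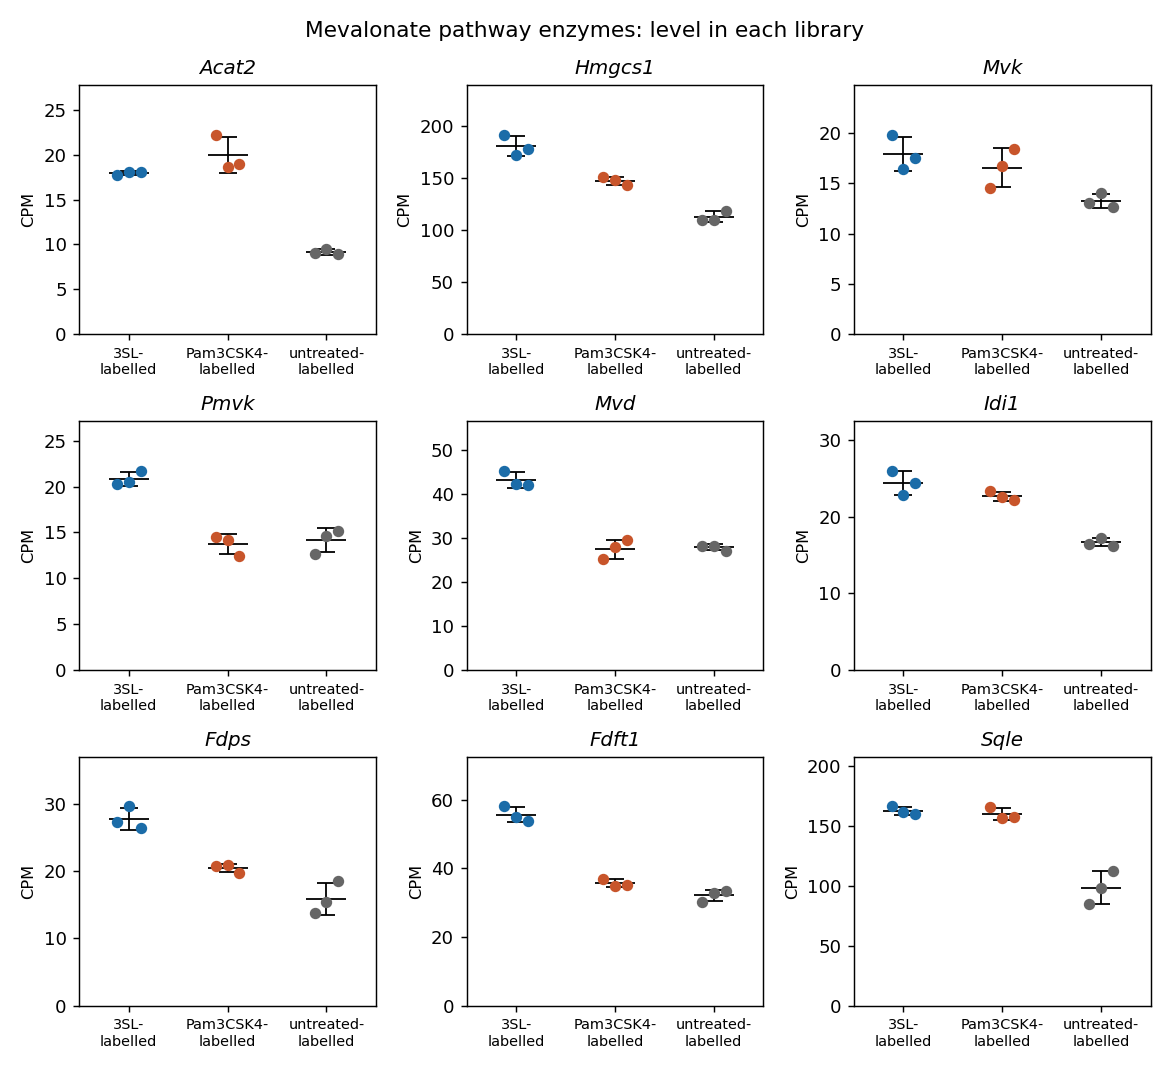
Level of each enzyme in every library in CPM (y axis, starting at 0), for 3SL-labelled, Pam3CSK4-labelled and untreated-labelled libraries from left to right; points are libraries and bars the mean and SD (n = 3). Every 3SL-labelled point lies above every untreated-labelled point of its gene, while the Pam3CSK4-labelled points lie near the 3SL-labelled ones for Acat2 and Sqle and near the untreated-labelled ones for Pmvk and Mvd.

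Between the 3SL-labelled and the untreated-labelled libraries all 9 enzymes were called higher and none lower. Of all tested genes 3.83% were called higher in this comparison, 5.11% lower and 8.94% in either direction. The 3 libraries of a group did not overlap those of the other for any of the 9 enzymes, against 24.0% of tested genes without overlap. The changes were moderate, 1.32-fold for Mvk to 1.94-fold for Acat2, and their median was 0.69 on the log2 scale beside 0.00 for all tested genes. A larger log2 change than that of Acat2 was seen in 0.375% of tested genes, and a larger one than that of Mvk, the smallest of the 9, in 4.49%.

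Between the 3SL-labelled and the Pam3CSK4-labelled libraries 5 enzymes were called higher (Hmgcs1, Pmvk, Mvd, Fdps and Fdft1) and none lower. Here 34.7% of all tested genes were called higher, 36.8% lower and 71.5% in either direction. The libraries of the groups did not overlap for 6 of the 9, against 73.1% of tested genes. Between the Pam3CSK4-labelled and the untreated-labelled libraries 7 enzymes were called higher and none lower, all but Pmvk and Mvd, where 39.0% of all tested genes were called higher, 35.9% lower and 75.0% in either direction. The same 7 did not overlap between these groups, against 76.0% of tested genes. In both of these comparisons calls were thus common among all genes. The median log2 change of the 9 was 0.29 in the comparison of 3SL-labelled with Pam3CSK4-labelled libraries and 0.39 in that of Pam3CSK4-labelled with untreated-labelled libraries, beside -0.02 and 0.03 over all tested genes. Any 2 of these comparisons share a group of libraries and are not independent.

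**Figure D2:**
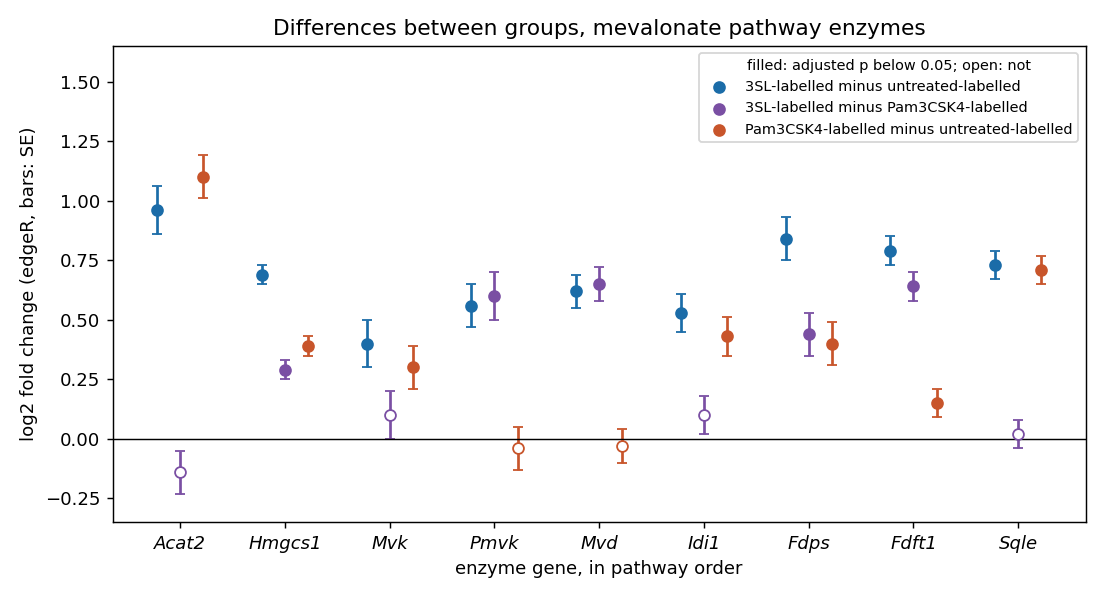
Log2 fold change of each enzyme gene (x axis, in pathway order) in the 3 comparisons, with its SE as bars; filled points have an adjusted p below 0.05 and open points do not. All 9 points of 3SL-labelled minus untreated-labelled are filled and positive, at 0.40 to 0.96, whereas the other comparisons split the enzymes differently.

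The enzymes that open the pathway differed in how the Pam3CSK4-labelled libraries stood. Acat2 (ENSMUSG00000023832, chr17:12942890-12960747 on GRCm38) encodes the cytosolic thiolase that joins acetyl-CoA units to acetoacetyl-CoA. It had 17.7, 18.1 and 18.1 CPM in 3SL-labelled libraries, 22.2, 18.65 and 18.95 CPM in Pam3CSK4-labelled libraries, and 9.06, 9.49 and 8.91 CPM in untreated-labelled libraries. The level in the untreated-labelled libraries was the lowest by a wide gap, and each Pam3CSK4-labelled library stood slightly above all 3SL-labelled ones. Acat2 was 1.94-fold higher in 3SL-labelled than in untreated-labelled libraries (log2 0.96 ± 0.10, edgeR adjusted p = 1.57e-07) and 2.14-fold higher in Pam3CSK4-labelled than in untreated-labelled libraries (1.10 ± 0.09, adjusted p = 1.73e-11). The difference of 3SL-labelled from Pam3CSK4-labelled libraries, -0.14 ± 0.09, did not pass the test (adjusted p = 0.176).

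Hmgcs1 (ENSMUSG00000093930, chr13:119690379-119708260 on GRCm38) encodes the cytosolic synthase that makes HMG-CoA. It had 192, 173 and 179 CPM in 3SL-labelled libraries, 151, 148 and 143 CPM in Pam3CSK4-labelled libraries, and 109.8, 110.2 and 119 CPM in untreated-labelled libraries. The groups formed 3 separate steps without overlap. The gene was 1.61-fold higher in 3SL-labelled than in untreated-labelled libraries (log2 0.69 ± 0.04, edgeR adjusted p = 2.55e-11), 1.22-fold higher in 3SL-labelled than in Pam3CSK4-labelled libraries (0.29 ± 0.04, adjusted p = 1.55e-06) and 1.31-fold higher in Pam3CSK4-labelled than in untreated-labelled libraries (0.39 ± 0.04, adjusted p = 5.94e-09).

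Of the 3 enzymes that turn mevalonate into isopentenyl diphosphate, Mvk had the smallest change in 3SL-labelled against untreated-labelled libraries and was, with TMM factors, the only one called in Pam3CSK4-labelled against untreated-labelled libraries. Mvk (ENSMUSG00000041939, chr5:114444269-114460591 on GRCm38) encodes mevalonate kinase, which adds the first phosphate. It had 19.8, 16.45 and 17.5 CPM in 3SL-labelled libraries, 14.6, 16.7 and 18.4 CPM in Pam3CSK4-labelled libraries, and 13.05, 14.0 and 12.6 CPM in untreated-labelled libraries. Both the 3SL-labelled and the Pam3CSK4-labelled libraries lay above the untreated-labelled libraries, the lowest Pam3CSK4-labelled library by a small margin, and they overlapped each other. Mvk was 1.32-fold higher in 3SL-labelled than in untreated-labelled libraries (log2 0.40 ± 0.10, edgeR adjusted p = 0.0109), but without library A2plus the value was 0.34 and no longer passed (adjusted p = 0.0803). It was 1.23-fold higher in Pam3CSK4-labelled than in untreated-labelled libraries (0.30 ± 0.09, adjusted p = 0.00557), which did not pass without library D3 (0.23, adjusted p = 0.0517). The 3SL-labelled and Pam3CSK4-labelled libraries differed by 0.10 ± 0.10 (adjusted p = 0.398).

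Pmvk (ENSMUSG00000027952, chr3:89454541-89469013 on GRCm38) encodes phosphomevalonate kinase, which adds the next phosphate. It had 20.2, 20.6 and 21.75 CPM in 3SL-labelled libraries, 14.6, 14.2 and 12.5 CPM in Pam3CSK4-labelled libraries, and 12.7, 14.6 and 15.2 CPM in untreated-labelled libraries. The 3SL-labelled libraries were high and the other groups overlapped. The gene was 1.48-fold higher in 3SL-labelled than in untreated-labelled libraries (log2 0.56 ± 0.09, edgeR adjusted p = 1.38e-04) and 1.52-fold higher in 3SL-labelled than in Pam3CSK4-labelled libraries (0.60 ± 0.10, adjusted p = 4.44e-06). Between Pam3CSK4-labelled and untreated-labelled libraries the difference was -0.04 ± 0.09 (adjusted p = 0.729).

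Mvd (ENSMUSG00000006517, chr8:122433601-122443422 on GRCm38), the gene of the decarboxylase that yields isopentenyl diphosphate, showed the same arrangement. It had 45.4, 42.4 and 42.1 CPM in 3SL-labelled libraries, 25.2, 27.9 and 29.5 CPM in Pam3CSK4-labelled libraries, and 28.3, 28.3 and 27.15 CPM in untreated-labelled libraries. Again the 3SL-labelled libraries alone stood apart. Mvd was 1.54-fold higher in 3SL-labelled than in untreated-labelled libraries (log2 0.62 ± 0.07, edgeR adjusted p = 5.01e-07) and 1.57-fold higher in 3SL-labelled than in Pam3CSK4-labelled libraries (0.65 ± 0.07, adjusted p = 7.57e-09), while Pam3CSK4-labelled and untreated-labelled libraries differed by -0.03 ± 0.07 (adjusted p = 0.756).

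Idi1 (ENSMUSG00000058258, chr13:8885501-8892451 on GRCm38) encodes the isomerase that turns isopentenyl diphosphate into dimethylallyl diphosphate, the starter of isoprenoid chains. It had 26, 22.8 and 24.4 CPM in 3SL-labelled libraries, 23.3, 22.5 and 22.2 CPM in Pam3CSK4-labelled libraries, and 16.5, 17.25 and 16.2 CPM in untreated-labelled libraries. The 3SL-labelled and the Pam3CSK4-labelled libraries were above the untreated-labelled libraries and overlapped each other. Idi1 was 1.44-fold higher in 3SL-labelled than in untreated-labelled libraries (log2 0.53 ± 0.08, edgeR adjusted p = 4.91e-05) and 1.35-fold higher in Pam3CSK4-labelled than in untreated-labelled libraries (0.43 ± 0.08, adjusted p = 1.23e-05). The 3SL-labelled and Pam3CSK4-labelled libraries differed by 0.10 ± 0.08 (adjusted p = 0.267).

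Fdps (ENSMUSG00000059743, chr3:89093588-89101959 on GRCm38), the gene of farnesyl diphosphate synthase, which makes the last intermediate shared by sterols and other isoprenoids, rose in both comparisons with the untreated-labelled libraries. It had 27.3, 29.6 and 26.4 CPM in 3SL-labelled libraries, 20.8, 20.8 and 19.7 CPM in Pam3CSK4-labelled libraries, and 13.75, 15.4 and 18.45 CPM in untreated-labelled libraries. The groups did not overlap, although the untreated-labelled libraries spread widely. Fdps was 1.79-fold higher in 3SL-labelled than in untreated-labelled libraries (log2 0.84 ± 0.09, edgeR adjusted p = 2.59e-07), 1.36-fold higher in 3SL-labelled than in Pam3CSK4-labelled libraries (0.44 ± 0.09, adjusted p = 9.79e-05) and 1.32-fold higher in Pam3CSK4-labelled than in untreated-labelled libraries (0.40 ± 0.09, adjusted p = 2.27e-04).

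Fdft1 (ENSMUSG00000021273, chr14:63145150-63179578 on GRCm38) encodes squalene synthase, which joins farnesyl diphosphate units into squalene and commits them to sterols. It had 58.05, 55.0 and 53.8 CPM in 3SL-labelled libraries, 37.0, 34.9 and 35.2 CPM in Pam3CSK4-labelled libraries, and 30.3, 32.7 and 33.5 CPM in untreated-labelled libraries. The 3SL-labelled libraries were well above the rest, and the Pam3CSK4-labelled ones lay just above the untreated-labelled ones. Fdft1 was 1.73-fold higher in 3SL-labelled than in untreated-labelled libraries (log2 0.79 ± 0.06, edgeR adjusted p = 1.14e-09) and 1.56-fold higher in 3SL-labelled than in Pam3CSK4-labelled libraries (0.64 ± 0.06, adjusted p = 1.08e-09). Its 1.11-fold rise in Pam3CSK4-labelled over untreated-labelled libraries (0.15 ± 0.06, adjusted p = 0.0348) did not pass without A2, D1 or D3, nor with DESeq2's scaling or test, in the 6 libraries alone or at equal depth, where adjusted p was 0.0529 to 0.198.

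Sqle (ENSMUSG00000022351, chr15:59315077-59331192 on GRCm38) encodes squalene monooxygenase, the enzyme that makes squalene epoxide and a rate-controlling step of sterol synthesis. It had 166, 161 and 160.3 CPM in 3SL-labelled libraries, 166, 157 and 157 CPM in Pam3CSK4-labelled libraries, and 84.9, 98.6 and 112 CPM in untreated-labelled libraries. The 3SL-labelled and Pam3CSK4-labelled libraries overlapped, and the untreated-labelled libraries were lower and more spread. Sqle was 1.66-fold higher in 3SL-labelled than in untreated-labelled libraries (log2 0.73 ± 0.06, edgeR adjusted p = 1.39e-09) and 1.64-fold higher in Pam3CSK4-labelled than in untreated-labelled libraries (0.71 ± 0.06, adjusted p = 1.04e-11). The 3SL-labelled and Pam3CSK4-labelled libraries differed by 0.02 ± 0.06 (adjusted p = 0.738).

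Where the Pam3CSK4-labelled libraries stood depended on the scaling of the libraries. With total counts alone in place of TMM factors, the median of all tested genes moved to 0.34 between Pam3CSK4-labelled and untreated-labelled libraries and to -0.29 between 3SL-labelled and Pam3CSK4-labelled libraries, but only to 0.04 between 3SL-labelled and untreated-labelled libraries. With this scaling 9 enzymes were called higher in Pam3CSK4-labelled than in untreated-labelled libraries, Pmvk at 0.28 and Mvd at 0.29 included. Of the 11469 tested genes 6882 were then called higher too and 2380 lower. That made 74.3% of the calls over all genes higher, against 52.0% with TMM factors. Between 3SL-labelled and Pam3CSK4-labelled libraries 3 enzymes were then called higher (Pmvk, Mvd and Fdft1) and 2 lower (Acat2 at -0.42 and Sqle at -0.25). Hmgcs1 at 0.02 and Fdps at 0.17 did not pass. Of the tested genes 2434 were called higher there and 6393 lower. Thus 27.6% of the calls over all genes were higher, against 48.5% with TMM factors. Between 3SL-labelled and untreated-labelled libraries all 9 enzymes were called higher with either scaling, although 66.0% of all calls were higher with total counts and 42.8% with TMM factors. With total counts 788 of the tested genes were called higher in this comparison and 406 lower.

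**Figure D3:**
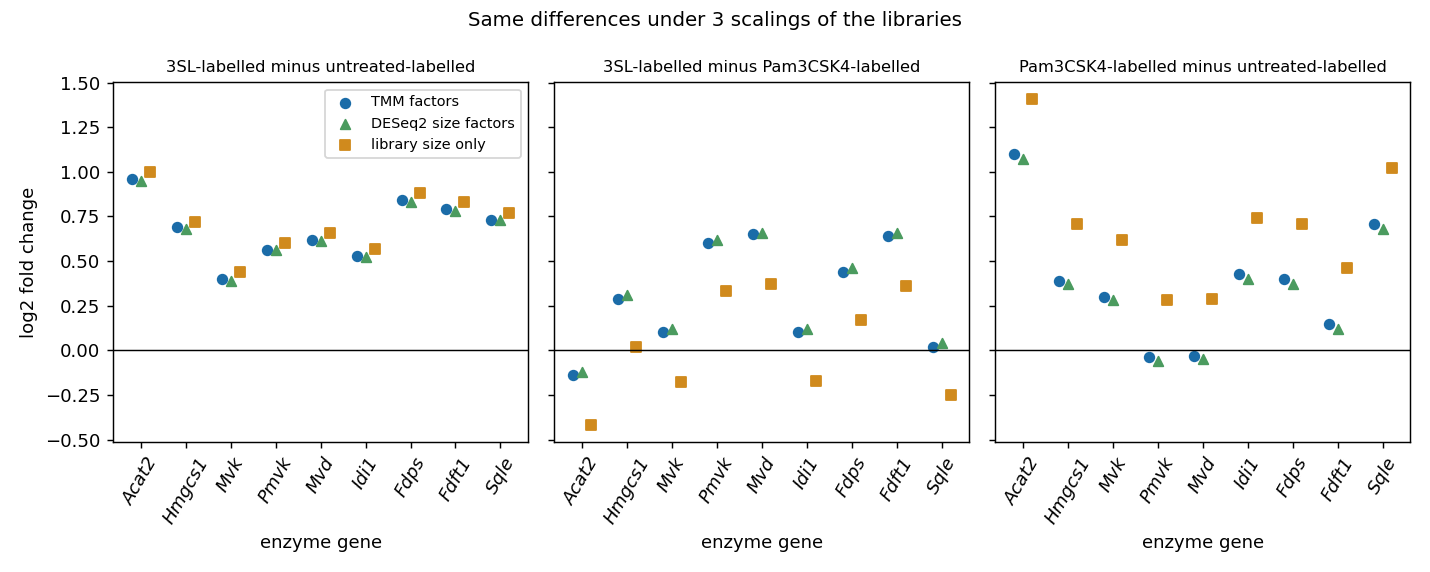
Log2 fold change (y axis) of each enzyme gene (x axis, in pathway order) with TMM factors (circles), DESeq2 size factors (triangles) and total counts only (squares), in a panel for each comparison. The values of 3SL-labelled minus untreated-labelled stay positive and close together, while total counts place all 9 enzymes lower in 3SL-labelled minus Pam3CSK4-labelled and higher in Pam3CSK4-labelled minus untreated-labelled than either other scaling does.

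The enzymes' shares of their own summed CPM do not depend on the scaling. They are tied to each other, since a larger share of one enzyme leaves less for the rest. A lower share is therefore not by itself a lower level. Acat2 made up 3.26 ± 0.148% of the sum in 3SL-labelled, 4.29 ± 0.341% in Pam3CSK4-labelled and 2.70 ± 0.213% in untreated-labelled libraries (SD, n = 3 each, as below). Sqle made up 29.5 ± 0.444%, 34.5 ± 0.466% and 28.85 ± 2.14% in the same order of groups. Both shares were above those of the untreated-labelled libraries, without overlap, in the Pam3CSK4-labelled libraries. Pmvk ran the other way, at 3.785 ± 0.238% in 3SL-labelled, 2.96 ± 0.204% in Pam3CSK4-labelled and 4.15 ± 0.154% in untreated-labelled libraries. Mvd had 7.85 ± 0.0888%, 5.94 ± 0.583% and 8.23 ± 0.716%, and Fdft1 had 10.1 ± 0.159%, 7.69 ± 0.103% and 9.45 ± 0.198%, in the same order. For Pmvk, Mvd and Fdft1 the Pam3CSK4-labelled libraries lay below both other groups without overlap. With TMM factors the levels of these genes there changed by -0.04, -0.03 and 0.15 on the log2 scale against the untreated-labelled libraries. Between 3SL-labelled and untreated-labelled libraries the shares were closer: Acat2 and Fdft1 lay above, Mvk below at 3.24 ± 0.205% against 3.90 ± 0.368%, and the other 6 overlapped. The make-up of the Pam3CSK4-labelled libraries was thus the one that differed most often, with 6 of 9 shares clear of the untreated-labelled range. In CPM, a different measure, 76.0% of all tested genes did not overlap between these groups, so that such separation was common. The shares are a description of these libraries without a test.

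**Figure D4:**
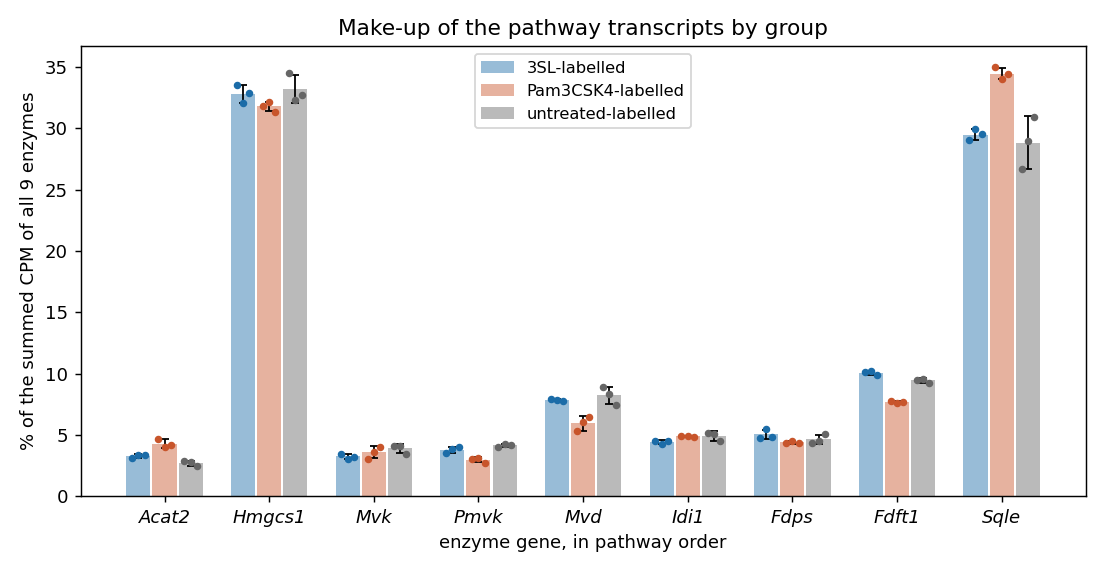
Share of each enzyme in the summed CPM of all 9 in every library (percent), by group, with the mean and SD (n = 3). In Pam3CSK4-labelled libraries the shares of Acat2 and Sqle are above, and those of Pmvk, Mvd and Fdft1 below, the ranges of both other groups.

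Compared per kilobase of exon, a rough way to set levels of different genes side by side, Hmgcs1 and Sqle were the most abundant in each group. The exon length includes stretches shared with other genes, where reads may be lost or added, and the order was not corrected for this. Of the 50-base words of Acat2, Fdft1, Fdps and Idi1, 39.1%, 26.5%, 26.2% and 25.3% occur in other genes, so their places are uncertain. Hmgcs1 had 39.4 ± 2.15 CPM per kb in 3SL-labelled, 32.1 ± 0.860 CPM per kb in Pam3CSK4-labelled and 24.6 ± 1.11 CPM per kb in untreated-labelled libraries. Sqle followed with 29.3 ± 0.588, 28.9 ± 0.949 and 17.8 ± 2.48 CPM per kb, and Mvd was next with 23.3 ± 0.984, 14.8 ± 1.17 and 15.0 ± 0.365 CPM per kb, in the same order. These 3 did not overlap their neighbours in any group. Below them, in 3SL-labelled libraries, Fdft1 (13.2 CPM per kb) and Pmvk (12.2) stood clear of each other, while Acat2, Idi1, Mvk and Fdps (6.60 to 7.06) overlapped their neighbours in the order. In Pam3CSK4-labelled libraries Fdft1, Pmvk and Acat2 (7.84 to 8.45 CPM per kb) overlapped, as did Idi1 and Mvk (6.19 to 6.46), and Fdps was lowest at 4.86. In untreated-labelled libraries Pmvk and Fdft1 (7.61 to 8.255 CPM per kb), Mvk and Idi1 (4.75 to 4.95), and Fdps and Acat2 (3.60 to 3.77) formed overlapping pairs. Acat2 was the last of the 9 in untreated-labelled libraries and the sixth in each of the others.

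The promoters of Hmgcs1, Mvk and Mvd are shown because these genes stood for 3 arrangements of the Pam3CSK4-labelled libraries with TMM factors. Those libraries lay between the other groups for Hmgcs1, overlapped the 3SL-labelled ones for Mvk, and overlapped the untreated-labelled ones for Mvd. For Acat2 they lay above both other groups, an arrangement not shown. With total counts alone the arrangements of Hmgcs1 and Mvd differed. The bases are RefSeq's on GRCm38.p6, 5′ to 3′ on the gene's strand, and end at the base before the annotated start. Capitals mark matches, on either strand, to the SREBP-type sterol regulatory element core TCACNCCAC, to CCAAT (the box bound by NF-Y) and to GGGCGG (the GC box bound by SP1). The Hmgcs1 stretch is chr13:119690101-119690350 on the plus strand, the Mvk stretch chr5:114444061-114444268 on the plus strand, cut where an exon of its neighbour Mmab begins, and the Mvd stretch chr8:122443423-122443672 on the minus strand.
Hmgcs1: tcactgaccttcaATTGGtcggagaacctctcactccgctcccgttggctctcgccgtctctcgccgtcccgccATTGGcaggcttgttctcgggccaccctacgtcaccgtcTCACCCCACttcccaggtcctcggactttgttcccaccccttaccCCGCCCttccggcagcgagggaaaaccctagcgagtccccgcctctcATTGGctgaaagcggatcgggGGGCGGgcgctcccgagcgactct
Mvk: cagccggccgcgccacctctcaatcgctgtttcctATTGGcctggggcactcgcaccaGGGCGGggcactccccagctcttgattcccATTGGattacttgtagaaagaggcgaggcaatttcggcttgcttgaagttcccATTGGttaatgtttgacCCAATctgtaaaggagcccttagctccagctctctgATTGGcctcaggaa
Mvd: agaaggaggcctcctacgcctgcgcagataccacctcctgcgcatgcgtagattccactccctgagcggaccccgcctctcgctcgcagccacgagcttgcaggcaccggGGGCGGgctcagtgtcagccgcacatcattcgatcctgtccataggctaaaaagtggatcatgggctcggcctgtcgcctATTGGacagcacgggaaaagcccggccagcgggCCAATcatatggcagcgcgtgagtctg

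Windows from 250 bases before to 50 bases after the start were given for 6 of the 9 enzymes, with 7 windows in all since Pmvk has a pair; Fdps, Fdft1 and Sqle were not among them. TCACNCCAC was found in 1 of the 7 windows, that of Hmgcs1 from base -137 to base -129 relative to the start, and in 1.24% of 32851 mouse promoter windows. CCAAT was found in 5 of the 7 windows, 4 times in that of Hmgcs1, 5 times in that of Mvk and 2 times in that of Mvd, and in 37.4% of all windows. GGGCGG was found in 5 of the 7 windows and in 35.7% of all windows. The E-box CACGTG was found in 0 of the 7 windows and in 7.15% of all windows. No motif match overlapped another in the stretches printed above. A match describes the letters of a window and is not a measured binding site, and a missing match says only that these letters are not in the window.

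The later sterol enzymes, which turn squalene epoxide into cholesterol, were called higher in part together with the 9. Of 11 such genes 8 were called higher and 0 lower in 3SL-labelled against untreated-labelled libraries, with a median log2 change of 0.73 beside 0.69 for the 9. The shares of all tested genes were 3.83% higher and 5.11% lower. Lss, the gene of lanosterol synthase, which takes squalene epoxide from Sqle, was 2-fold higher (SE 0.09 on the log2 scale, edgeR adjusted p = 3.38e-09). Cyp51, the lanosterol demethylase, was 1.80-fold higher (0.85 ± 0.05, adjusted p = 7.44e-12) and Msmo1, the sterol-C4-methyl oxidase, 1.67-fold higher (0.74 ± 0.04, adjusted p = 1.32e-12). Tm7sf2, Lbr and Ebp did not pass, at 0.27, 0.11 and 0.18. Against the Pam3CSK4-labelled libraries, 4 of the 11 were higher and 4 lower in 3SL-labelled libraries, with a median of 0.11, and 10 were higher and 1 lower in Pam3CSK4-labelled against untreated-labelled libraries, with a median of 0.62. With total counts alone these counts were 2 higher and 6 lower, and 10 higher and 0 lower. Of all 11469 tested genes 2434 were then called higher and 6393 lower in the former comparison, and 6882 and 2380 in the latter. With TMM factors 34.7% of all tested genes were higher and 36.8% lower in the former comparison, and 39.0% and 35.9% in the latter.

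Dhcr7 and Hsd17b7 parted most within that list. Dhcr7, which encodes the reductase of the last step to cholesterol, had 13.1, 10.4 and 12.1 CPM in 3SL-labelled libraries, 36.2, 41.0 and 33.55 CPM in Pam3CSK4-labelled libraries, and 6.02, 7.18 and 7.105 CPM in untreated-labelled libraries. The Pam3CSK4-labelled libraries were far above the rest. Dhcr7 was 5.41-fold higher in Pam3CSK4-labelled than in untreated-labelled libraries (log2 2.44 ± 0.10, edgeR adjusted p = 1.15e-18) and 3.16-fold lower in 3SL-labelled than in Pam3CSK4-labelled libraries (-1.66 ± 0.10, adjusted p = 3.82e-14). Hsd17b7, a sterol-C3-ketoreductase gene, was 2.02-fold higher in 3SL-labelled than in Pam3CSK4-labelled libraries (1.01 ± 0.06, adjusted p = 8.08e-14). It was lower in Pam3CSK4-labelled than in untreated-labelled libraries with TMM factors (-0.32 ± 0.06, adjusted p = 7e-05) and at 0.00 with total counts alone.

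**Figure D5:**
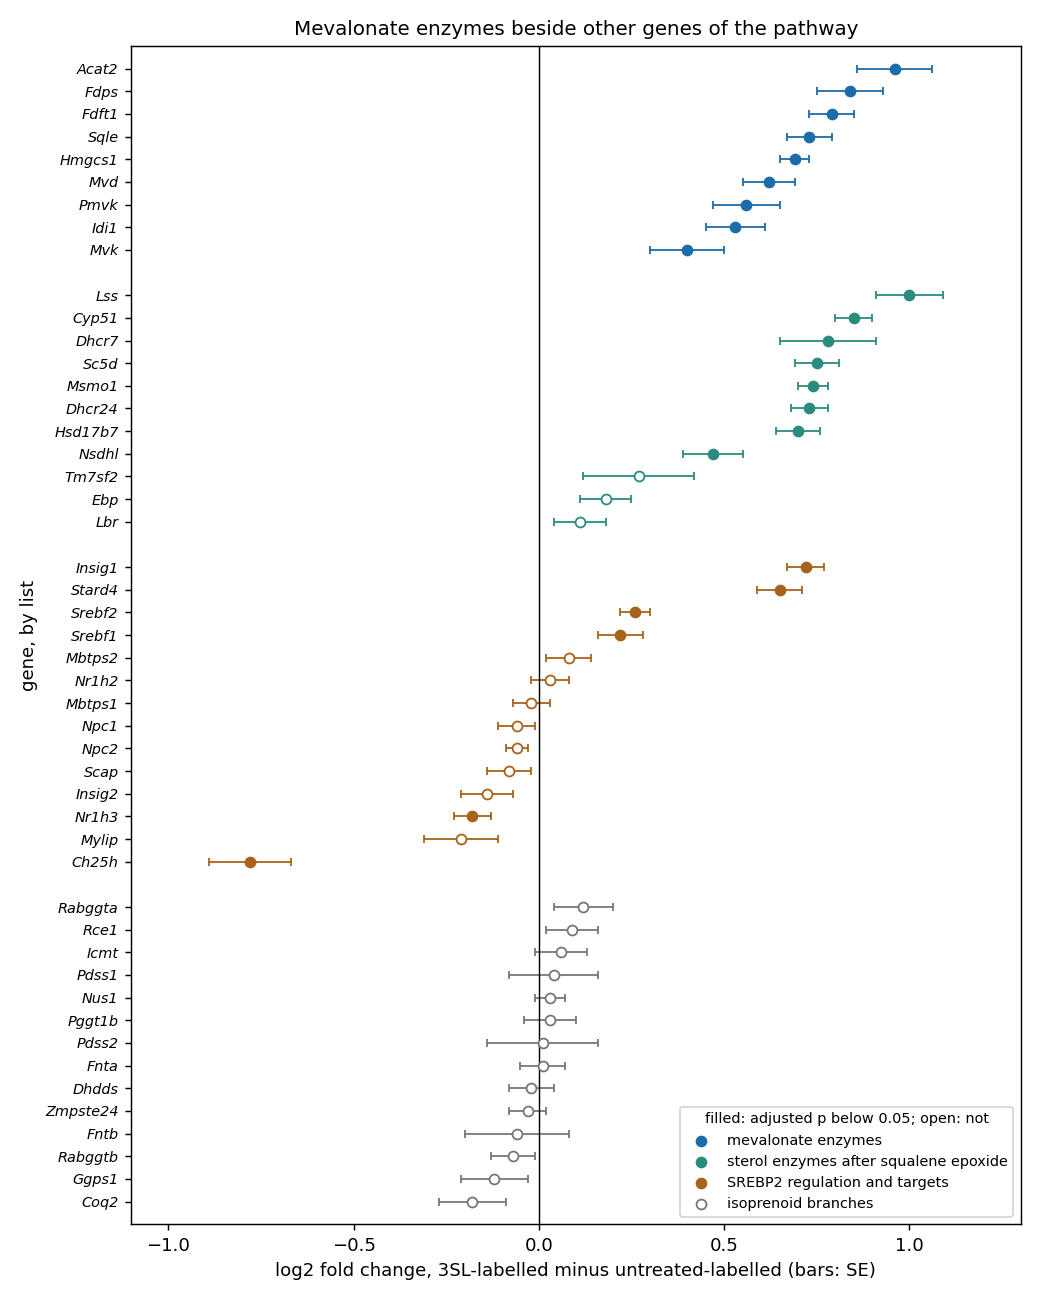
Log2 fold change (x axis) of 3SL-labelled minus untreated-labelled libraries for tested genes (rows) of the 9 enzymes, the sterol enzymes after squalene epoxide, the SREBP2 list and the isoprenoid branches; bars are the SE and filled points have an adjusted p below 0.05. All 9 points of the first list and 8 of 11 of the second are filled and positive, the genes shown of the SREBP2 list have points on both sides, and no isoprenoid branch gene is filled.

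Genes of SREBP2 control and sterol handling moved in both directions. Of 17 such genes 15 were tested (Cyp7b1 was among those not tested), with a median of -0.02 in 3SL-labelled against untreated-labelled libraries. In that comparison 5 were called higher, Insig1 and Stard4 among them, and 2 lower. The 2 called lower were Ch25h, of oxysterol synthesis, and Nr1h3, of an oxysterol receptor. The shares of all tested genes were 3.83% higher and 5.11% lower. Srebf2, the gene of SREBP2 itself, had 250.5, 238 and 239 CPM in 3SL-labelled libraries, 175, 181 and 174 CPM in Pam3CSK4-labelled libraries, and 199, 198 and 211.5 CPM in untreated-labelled libraries. It was 1.20-fold higher in 3SL-labelled than in untreated-labelled libraries (log2 0.26 ± 0.04, edgeR adjusted p = 3.24e-05) and 1.37-fold higher in 3SL-labelled than in Pam3CSK4-labelled libraries (0.46 ± 0.04, adjusted p = 4.01e-11). In Pam3CSK4-labelled against untreated-labelled libraries it stood at -0.20 with TMM factors and at 0.12 with total counts alone, so that its direction there depends on the scaling.

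Insig1, a well-known SREBP2 target whose protein retains the SREBP carrier in the endoplasmic reticulum, had 94.3, 96.8 and 98.8 CPM in 3SL-labelled libraries, 116, 106 and 102 CPM in Pam3CSK4-labelled libraries, and 54.5, 60.3 and 62.1 CPM in untreated-labelled libraries. Like Acat2, it was highest in the Pam3CSK4-labelled libraries, 1.83-fold above the untreated-labelled ones (log2 0.88 ± 0.05, edgeR adjusted p = 9.47e-15), and it was 1.64-fold higher in 3SL-labelled than in untreated-labelled libraries (0.72 ± 0.05, adjusted p = 4.32e-10). The 3SL-labelled libraries lay between the other groups without overlap.

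Ch25h, the gene of the enzyme that makes 25-hydroxycholesterol, an inhibitor of SREBP processing, was lower where the 9 were higher in 3SL-labelled against untreated-labelled libraries. It had 18.1, 15.0 and 17.7 CPM in 3SL-labelled libraries, 13.4, 9.64 and 14.75 CPM in Pam3CSK4-labelled libraries, and 29.96, 29.35 and 26.7 CPM in untreated-labelled libraries. The untreated-labelled libraries were the high ones. Ch25h was 1.72-fold lower in 3SL-labelled than in untreated-labelled libraries (log2 -0.78 ± 0.11, edgeR adjusted p = 1.17e-05) and 2.34-fold lower in Pam3CSK4-labelled than in untreated-labelled libraries (-1.23 ± 0.10, adjusted p = 2.34e-11). In 3SL-labelled against Pam3CSK4-labelled libraries it was 1.36-fold higher (0.44 ± 0.13, adjusted p = 0.00266), which did not pass with total counts alone (0.17, adjusted p = 0.222). Of the whole list, 9 genes were higher and 5 lower in 3SL-labelled against Pam3CSK4-labelled libraries, and 5 higher and 8 lower in Pam3CSK4-labelled against untreated-labelled libraries. With total counts alone these counts were 4 higher and 6 lower, and 8 higher and 4 lower. Of all 11469 tested genes 2434 were then called higher and 6393 lower in the former comparison, and 6882 and 2380 in the latter. With TMM factors 34.7% of all tested genes were higher and 36.8% lower in the former comparison, and 39.0% and 35.9% in the latter. Nr1h3, the gene of the oxysterol receptor LXRα, was 4.61-fold higher in 3SL-labelled than in Pam3CSK4-labelled libraries (2.20 ± 0.06, adjusted p = 2.37e-22), and Npc1, which encodes a lysosomal cholesterol exporter, was 1.88-fold lower (-0.91 ± 0.05, adjusted p = 3.5e-16).

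The branches that use farnesyl diphosphate for other isoprenoids showed no call between 3SL-labelled and untreated-labelled libraries. Of 14 genes for prenylation, dolichol and ubiquinone synthesis 0 passed edgeR's test in either direction, 0 had an unadjusted p below 0.05, and DESeq2's Wald test called 0. Of all tested genes 8.94% were called in either direction, a share at which few calls are usual among 14 genes. An unadjusted p below 0.05 was seen in edgeR's test for 2437 of 11469. The log2 changes of the 14 genes lay between -0.18 and 0.12 with a median of 0.01. Against the Pam3CSK4-labelled libraries 6 were higher and 3 lower in 3SL-labelled libraries, among them Nus1, which encodes a subunit of the dolichol-making transferase, at 0.36 ± 0.04 (edgeR adjusted p = 1.13e-08), and Coq2 of ubiquinone synthesis at -0.76 ± 0.09 (adjusted p = 2.32e-08). In Pam3CSK4-labelled against untreated-labelled libraries 3 were higher and 7 lower with TMM factors, and 6 higher and 1 lower with total counts alone. Of all 11469 tested genes total counts called 6882 higher and 2380 lower there. In 3SL-labelled against Pam3CSK4-labelled libraries total counts gave 2 higher and 7 lower of the 14, beside 2434 higher and 6393 lower of all tested genes. With TMM factors 34.7% of all tested genes were higher and 36.8% lower in 3SL-labelled against Pam3CSK4-labelled libraries. The shares were 39.0% and 35.9% in Pam3CSK4-labelled against untreated-labelled libraries.

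Acat1, the gene of the mitochondrial thiolase, was not called where Acat2 was higher in 3SL-labelled libraries. It stood at 0.09 ± 0.06 in 3SL-labelled against untreated-labelled libraries and did not pass (edgeR adjusted p = 0.444). In 3SL-labelled against Pam3CSK4-labelled libraries it was 1.45-fold lower (-0.53 ± 0.06, adjusted p = 1.78e-08), and in Pam3CSK4-labelled against untreated-labelled libraries it was 1.54-fold higher (0.62 ± 0.06, adjusted p = 1.25e-10). Acat3, a close relative of Acat2, had 3, 9 and 14 counts in 3SL-labelled libraries, 3, 2 and 2 counts in Pam3CSK4-labelled libraries, and 10, 26 and 12 counts in untreated-labelled libraries, below the filter on low counts. Idi2, a paralog of Idi1, had 1 count in all 9 libraries together.

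The mean pattern of the 9 enzymes, as log2 CPM centred on each gene's own mean, was 0.37, 0.30 and 0.31 in 3SL-labelled libraries, 0.04, 0.02 and 0.01 in Pam3CSK4-labelled libraries, and -0.43, -0.33 and -0.30 in untreated-labelled libraries. Hmgcs1 lay closest to it, with a root-mean-square difference of 0.0336 over the 9 libraries, then Idi1 (0.0952) and Fdps (0.108). Acat2 lay farthest (0.309). Each enzyme enters this mean itself, so these values cannot be set directly beside those of genes that do not. Outside the gene lists, and among 8210 genes with a mean of at least 10 CPM, the most alike were Syn1 (0.102), Aacs (0.139), Fam129a (0.143), Lpin2 (0.147) and Hyou1 (0.148). Aacs encodes acetoacetyl-CoA synthetase, which makes the substrate of Hmgcs1 from acetoacetate. In 3SL-labelled against untreated-labelled libraries it was at 0.41, Syn1 at 0.65, Fam129a at 0.38, Lpin2 at 0.35 and Hyou1 at 0.33 on the log2 scale. Not all followed the steps between groups. In 3SL-labelled against Pam3CSK4-labelled libraries Aacs (0.04, edgeR adjusted p = 0.646) and Fam129a (0.03, adjusted p = 0.506) did not pass, while Syn1, Lpin2 and Hyou1 did (0.18 to 0.26). In Pam3CSK4-labelled against untreated-labelled libraries Lpin2 did not pass (0.09, adjusted p = 0.0738), and the others did (0.16 to 0.42). Likeness in 3 groups of 3 libraries describes these libraries and has no test.

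Some of the counts could be shared with other genes. For exons on opposite strands this depends on the strand setting of the counting, which is not given in the sources used here. Exons of Fdft1 overlap 774 bases of Ctsb on the opposite strand in GENCODE M21. Ctsb, the gene of cathepsin B, had 13539 to 13842 CPM in 3SL-labelled, 16787 to 17246 CPM in Pam3CSK4-labelled and 14349.6 to 14575 CPM in untreated-labelled libraries, and it fell by 0.08 on the log2 scale in 3SL-labelled against untreated-labelled libraries, where Fdft1 rose by 0.79. In Pam3CSK4-labelled against untreated-labelled libraries Ctsb rose by 0.23 (edgeR adjusted p = 1.06e-10) and Fdft1 by 0.15, the same direction, and in 3SL-labelled against Pam3CSK4-labelled libraries Ctsb stood at -0.31 and Fdft1 at 0.64. The part of shared reads in these values was not tested. Exons of Fdps share 1124 bases on the same strand with Gm43738, which was listed at 0 counts in all libraries. On the opposite strand, Hmgcs1 shares 557 exon bases with Gm48342 and Idi1 323 with Gm48574, neither of them among the genes counted. Of the 50-base words in Acat2's exons 39.1% also occur in Acat3. The share found in other genes was 26.5% for Fdft1 (17.2% in Ctsb), 26.2% for Fdps (23.4% in Gm43738), 25.3% for Idi1 and 11.6% for Hmgcs1, and below 1% for Mvk and Sqle. In Pmvk and Mvd 0% of such words occur elsewhere, so that these have no such near-identical copy by this measure.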

How the data were processed

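RNA of 9 macrophage libraries was sequenced. The authors deposited a table of raw read counts for each gene, which was used as it stands. The submitters' processing notes name Subread, featureCounts and HISAT2 2.1.0, and the human build hg38. All 22001 identifiers are mouse Ensembl identifiers, so the build is not settled. The table's other 15 sample columns were not used. Symbols, positions and exon lengths came from GENCODE M21 (GRCm38) and are not the authors' coordinates.

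Counts were tested in R 4.3.3 with edgeR 4.0.16 (TMM factors, filterByExpr, quasi-likelihood test, Benjamini-Hochberg adjustment, threshold 0.05), which kept 11469 genes (52.1%); the common dispersion was 0.00133. CPM are relative to the TMM-scaled library size. The steps were tested on simulated data. DESeq2 1.42.0, other scalings and filters, thinning to 7472482 counts per library and leaving out each library were tried as alternatives.

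Members, lists and the naming rule were chosen with earlier results of these data known. The rule took all 9 enzymes, the 2 smallest p of each list and comparison, Srebf2, Insig1, Ch25h, Acat3, Il1b and Tnf, and the 5 genes most like the members' mean profile. Genes named beside these were chosen after their values were seen. Some genes that the rule takes are not reported here. Libraries of a group were compared and none agreed within counting error.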

Additional observations from a re-analysis of the deposited data

How the results depend on the processing

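Between 3SL-labelled and untreated-labelled libraries the 9 enzymes kept their direction in every alternative run, and 9 were called higher in each except without A2plus, where 8 were. Over the alternatives that leave out a library, 8 to 9 enzymes were higher in this comparison.

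With total counts alone, 3 enzymes were higher and 2 lower in 3SL-labelled against Pam3CSK4-labelled libraries, beside 2434 higher and 6393 lower of all tested genes. Log2 values that changed sign there were -0.18 for Mvk, -0.17 for Idi1, -0.25 for Sqle, -0.05 for Syn1, -0.24 for Aacs, -0.24 for Fam129a, -0.01 for Lpin2 and -0.10 for Hyou1, and in Pam3CSK4-labelled against untreated-labelled libraries 0.28 for Pmvk, 0.29 for Mvd, 0.16 for Rabggta and 0.12 for Srebf2. Without a filter on low counts Sqle stood at 0.00 in 3SL-labelled against Pam3CSK4-labelled libraries. In Pam3CSK4-labelled against untreated-labelled libraries Pmvk ranged from -0.10 (without A2) to 0.03 (without D3; 0.01 without B2) and Mvd from -0.07 (without D3) to 0.03 (without D1) over left-out libraries. The cause of these changes was not tested, except that total counts leave out the scaling that centres most genes. Of 360 recomputed values of single enzymes 339 kept their direction and side of the threshold. The letters A, B and C showed no clear pairing of the 3SL-labelled with the untreated-labelled libraries. Same-letter deviations correlated at 0.01, 0.10 and -0.02 over 8279 genes, and those of different letters at -0.12 to 0.09. Deviations from means of 3 libraries could miss a weak pairing, so whether the letters mark shared cultures or animals is not settled. A fit with the replicate block called 9 enzymes higher, and 402 genes higher and 549 lower in all, against 439 and 586 without it. Acat3, with 2 to 26 counts per library, Cyp7b1, with 1 to 17, and Idi2, with 1 count in all, fell below the filter on low counts.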
